A study of Mus musculus with 2 samples.

Results

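RNA sequencing was done on chondrocytes, the cells of cartilage, taken as primary cells from wild-type mice. One library came from cells given recombinant mouse Sparcl1 protein at 50 ng/ml for 3 days and 1 from cells given phosphate-buffered saline (PBS) for the same time. Strain, age, tissue of origin and the number of animals are not stated in the labels, and there was 1 library per group. The subject here is a set of 45 genes of mitosis and the G2/M phase, chosen by symbol for roles in mitotic entry, the spindle, the kinetochore, chromosome condensation and cytokinesis, out of 21983 genes in the table. All 45 symbols were in the table. Of these, 43 had at least 20 counts summed over both libraries, and *Kif11* and *Nek2* were listed at 0 in both.

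Mitosis separates duplicated chromosomes. Cyclin A and cyclin B activate the kinase Cdk1, chromosomes are compacted by condensin, and microtubules of the spindle attach to kinetochores on the centromeres. A checkpoint holds back the anaphase-promoting complex until every kinetochore is attached; then securin and cyclin B are degraded, sister chromatids part, and the cell is cut in 2 by cytokinesis. Transcripts of these genes accumulate late in the cell cycle, so in a bulk culture they are widely used as markers of dividing cells. In cartilage, division is a feature of the proliferating zone of the growth plate, and primary chondrocytes divide in monolayer culture.

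The mitotic genes were slightly more abundant in the Sparcl1 library. Of the 43 measured members, 42 had a ratio above 1, Sparcl1 over PBS, against 49.6% of all 13317 genes with at least 20 summed counts. The median log2 ratio of the members was 0.24, while that of all these genes was 0.00. A gene was counted as higher when its ratio reached 1.2-fold and its 95% counting interval excluded equality: 17 members passed, against 8.34% of all genes, and no member was lower by the same rule, against 7.66%. The interval lay above equality for 34 members and below it for none, against 20.1% and 21.6% of all genes. None of the members passed 2-fold in either direction, which 0.954% of all genes did upward and 0.946% downward. The largest ratio was 1.41-fold, for *Cenpa*, and *Mki67* alone had a ratio below 1, at 0.989-fold, which turned to above 1 with total counts as library sizes or with the abundance trend or the GC and length trends removed. With the GC and length trends removed *Mybl2* was the one below 1, at -0.01 on the log2 scale. With 1 library per group no test of the treatment was possible, no difference has a replicate check, and every interval covers counting error only.

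Together the members took 59753 of 26871933 counts in the Sparcl1 library, or 0.222% (exact 95% binomial interval 0.221 to 0.224), and 56106 of 29858851 counts in the PBS library, or 0.188% (0.186 to 0.189). Scaled to a common library size, their summed level was 2197 CPM (counts at a common library size) in the Sparcl1 library and 1902 CPM in the PBS library, 1.16-fold higher (1.14 to 1.17). The members were well counted, with 409 to 10535 summed counts and a median of 2022. Among the 9312 genes with summed counts in that range, 7.61% were higher by the 1.2-fold rule, 49.8% had a ratio above 1, and 95% of their log2 ratios lay between -0.38 and 0.39. Single members therefore mostly lay inside the spread of all genes, with *Cenpa*, *Aurka*, *Plk1*, *Kif2c*, *Spc24* and *Aurkb* above it. In bulk RNA, more dividing cells and more RNA per dividing cell cannot be told apart.

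Marker genes fixed for other cell types were measured in the same libraries. All 14 chondrocyte markers were detected, with a summed level of 12204 CPM in the Sparcl1 library and 13942 CPM in the PBS library and a median log2 ratio of -0.25. Of the 14, 2 had ratios above 1 (49.6% of all genes) and 6 were lower by the 1.2-fold rule (7.66%). The collagen gene *Col2a1* gave 7332 CPM of the sum in the Sparcl1 library and 8629 CPM in the PBS library. All 16 macrophage markers were also detected, at 2812 CPM in the Sparcl1 library and 2484 CPM in the PBS library. The lysozyme gene *Lyz2*, with 44617 counts with Sparcl1 and 39139 with PBS, made up most of that sum. The median log2 ratio of the macrophage markers was 0.04 and 9 of 16 had ratios above 1 (49.6% of all genes). By the 1.2-fold rule 3 of the 16 were higher (8.34% of all genes), with *Itgam* highest at 0.45. The rule called 1 lower (7.66%), *Fcgr1* at -0.61. All 8 osteoblast markers lay below equality (median -0.44 on the log2 scale), while 49.6% of all genes had ratios above 1. Intervals lay below equality for 4 of the 8 (21.6% of all genes), and the rest had intervals that included it. The same 4 were lower by the 1.2-fold rule defined above (7.66% of all genes). The summed level of all 8 was 6499 CPM in the Sparcl1 library and 8467 CPM in the PBS library, nearly all of it from the collagen gene *Col1a1* (log2 -0.38). The bone matrix and mineralisation genes *Ibsp* and *Alpl* were at -0.62 and -0.54. No lymphocyte marker reached 20 summed counts: *Cd3e* and *Cd3g* were at 0 in both libraries, *Cd2* had 3 counts in each, and *Cd79a* had 0 with Sparcl1 and 15 with PBS. Of 6 endothelial markers only *Kdr* had 20 summed counts or more. The part of these other cell types in the mitotic transcripts was not tested.

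**Figure D1:**
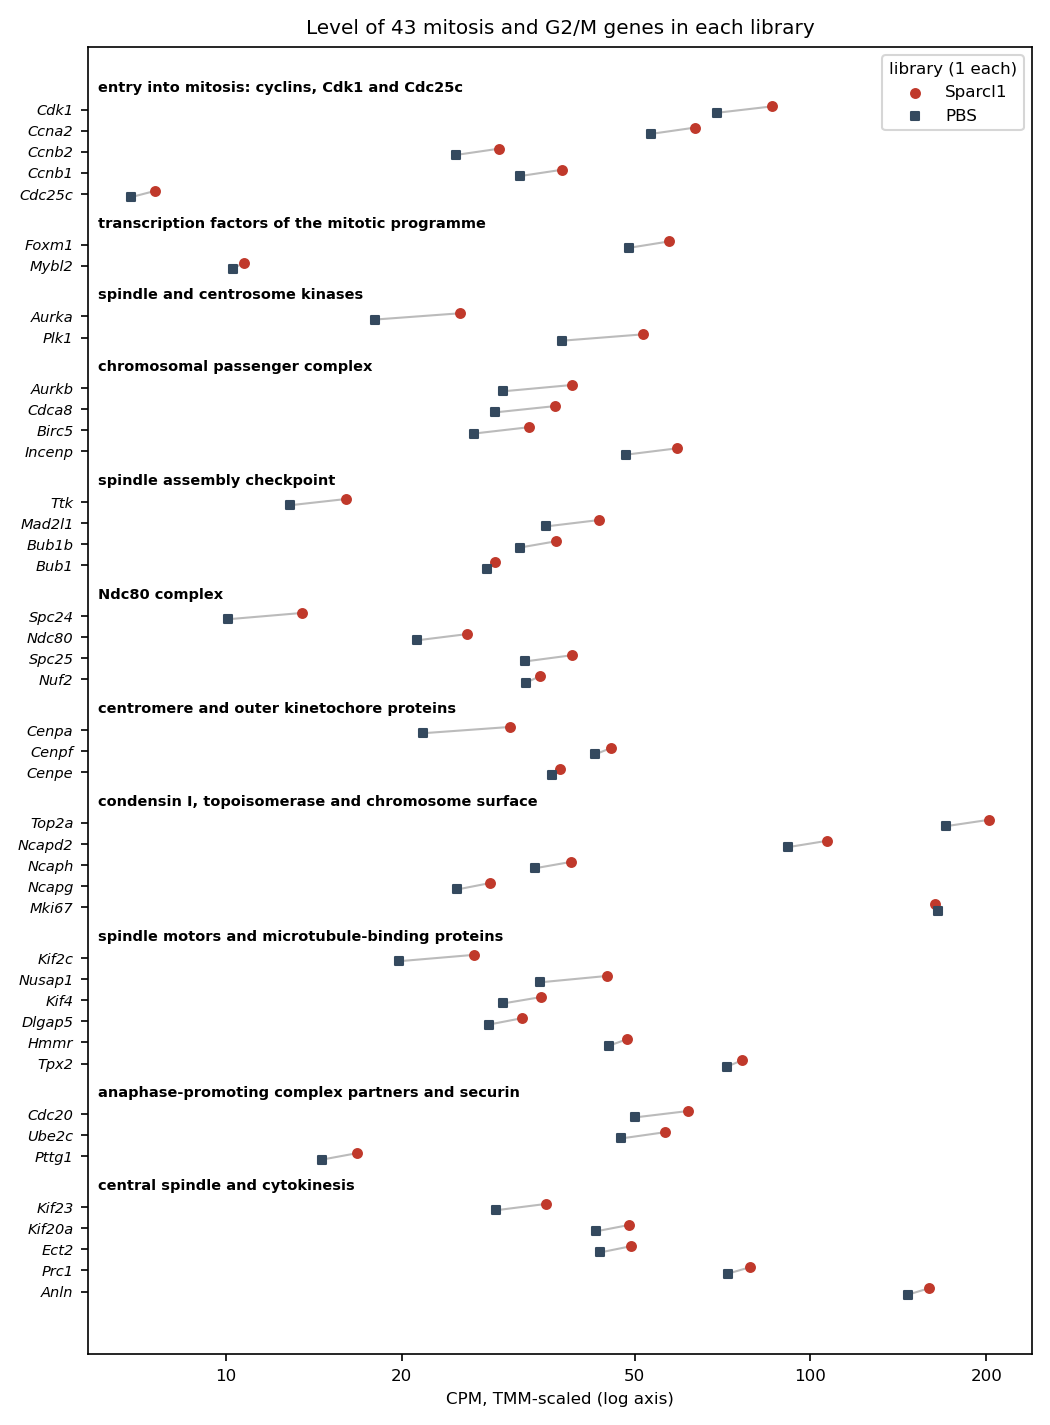
CPM at TMM-scaled library size (x axis, log scale) of the 43 measured members, by role, in the Sparcl1 library (red circles) and the PBS library (dark squares), 1 library each. Levels span 7.57 CPM (Cdc25c) to 202 CPM (Top2a) in the Sparcl1 library, and the red point lies right of the dark one for every gene except Mki67, whose order turns with total counts as library sizes.

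Promoters of genes of this kind are known for 2 short elements, the cell cycle genes homology region (CHR), bound by the MuvB core of the DREAM and MYB-MuvB complexes, and the CCAAT box, bound by the factor NF-Y. RefSeq promoter windows (GRCm38.p6, 250 bases before to 50 after the start) were matched by symbol for 36 of the 45 members. The CHR was searched as TTTGAA or TTCGAA and the CCAAT box as CCAAT, each on both strands. TTCGAA reads the same on both, and a base could serve in a match to either element. A CHR match was found in 26 of 36 members (72.2%), against 21.7% of all 27025 genes with a window and 16.2% of the 8861 with a window and at least 200 summed counts. A CCAAT match was also found in 26 of 36 members, against 41.1% of all genes and 43.03% of those with at least 200 counts. Both elements were found in 23 members (63.9%), against 9.65% and 7.93% in the same backgrounds. A match describes letters in a window and does not show that a factor binds there.

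The promoters shown are those of the 3 members with the highest ratios, *Cenpa*, *Aurka* and *Plk1*, of 3 textbook cell-cycle promoters, *Ccnb2*, *Cdk1* and *Cdc20*, and of *Mki67*, the member with the lowest ratio. Capitals mark CHR cores (TTTGAA) and CCAAT boxes (CCAAT, or ATTGG on the other strand). Each runs 5′ to 3′ on the strand of its gene and covers the 120 bases before the RefSeq start, except *Mki67*, shown from 200 to 81 bases before the start, where its matches lie.
Cenpa, chr5:30666766-30666885, plus strand: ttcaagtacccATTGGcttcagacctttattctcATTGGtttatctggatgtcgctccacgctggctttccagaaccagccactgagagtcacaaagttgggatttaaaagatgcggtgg
Aurka, chr2:172370571-172370690, minus strand: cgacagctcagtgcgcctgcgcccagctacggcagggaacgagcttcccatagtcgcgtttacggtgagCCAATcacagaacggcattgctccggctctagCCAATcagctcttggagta
Plk1, chr7:122159315-122159434, plus strand: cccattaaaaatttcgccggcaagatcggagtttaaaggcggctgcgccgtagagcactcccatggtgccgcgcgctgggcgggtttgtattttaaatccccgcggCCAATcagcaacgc
Ccnb2, chr9:70421555-70421674, minus strand: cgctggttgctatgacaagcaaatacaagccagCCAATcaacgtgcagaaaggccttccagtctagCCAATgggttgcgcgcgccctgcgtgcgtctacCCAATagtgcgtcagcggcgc
Cdk1, chr10:69352913-69353032, minus strand: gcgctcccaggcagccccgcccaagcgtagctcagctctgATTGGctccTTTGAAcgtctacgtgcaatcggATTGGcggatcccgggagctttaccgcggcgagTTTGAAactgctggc
Cdc20, chr4:118437344-118437463, minus strand: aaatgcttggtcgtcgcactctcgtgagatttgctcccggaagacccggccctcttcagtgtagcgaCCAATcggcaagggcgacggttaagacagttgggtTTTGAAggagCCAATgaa
Mki67, chr7:135716460-135716579, minus strand: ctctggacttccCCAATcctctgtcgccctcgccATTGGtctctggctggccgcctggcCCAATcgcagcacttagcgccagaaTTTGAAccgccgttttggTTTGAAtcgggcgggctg

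In 4 of these genes the CHR core lay just after the RefSeq start, and 20 bases around it are given for that reason. *Ccnb2* held a further CHR core upstream of the stretch shown.
Cenpa, chr5:30666899-30666918, plus strand: tttTTTGAActgctggcgac
Aurka, chr2:172370522-172370541, minus strand: accTTTGAAttgtaacggct
Plk1, chr7:122159462-122159481, plus strand: gcgTTTGAAttcggggagga
Ccnb2, chr9:70421534-70421553, minus strand: gtaTTTGAAtcgcggaccgg
Among all 36 member promoters, 11 (30.6%) held a CHR match in the first 25 bases from the start, against 0.993% of genes with at least 200 summed counts. CCAAT matches were most frequent 75 to 51 bases before the start, in 12 member promoters (33.3%) against 9.68%. The 25 measured members with a CHR match had a median log2 ratio of 0.25 and the 9 without had 0.20. Their ranges, -0.02 to 0.50 with and 0.05 to 0.38 without, overlapped. For the CCAAT box the order was the other way, with 0.24 for the 24 with a match and 0.25 for the 10 without. *Mki67*, with a ratio near 1, held 2 CHR cores and 3 CCAAT boxes, and *Nusap1*, at 0.38, held neither in its window.

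**Figure D2:**
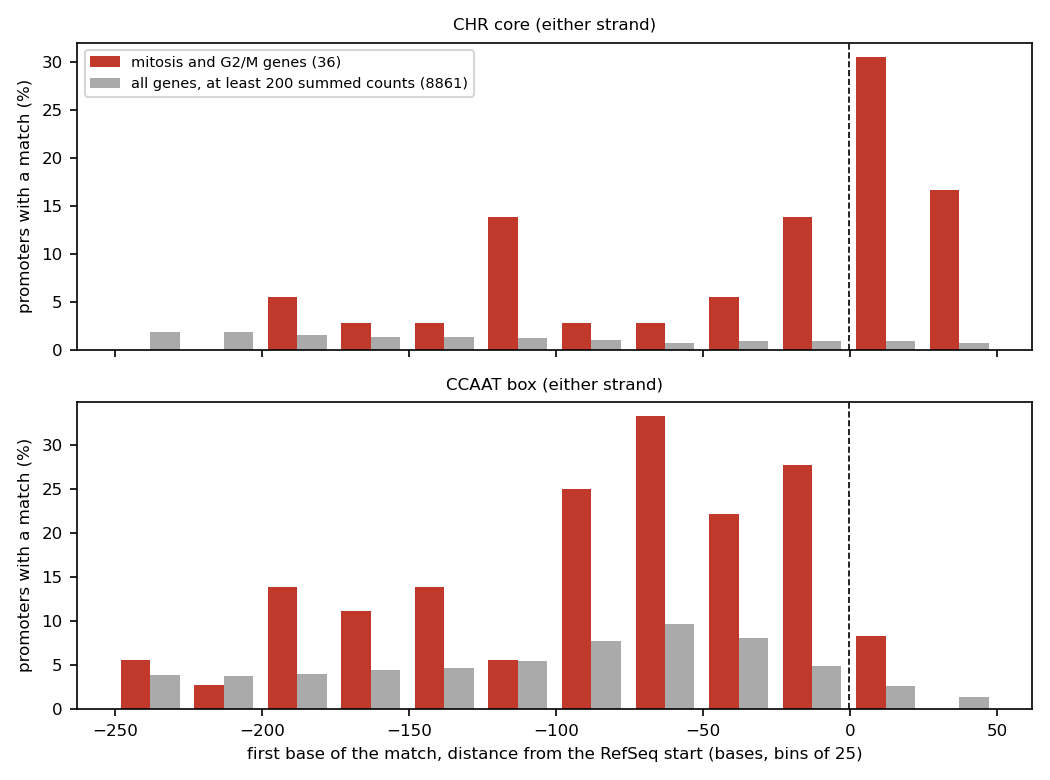
Percent of promoters (y axis, from 0) with a CHR match (top) or a CCAAT match (bottom) in each 25-base bin of distance from the RefSeq start (x axis, bases; dashed line, the start), for 36 members (red) and 8861 genes with at least 200 summed counts (grey), 1 window per gene. The members' CHR matches peak in the first 25 bases from the start (30.6% against 0.993%) and their CCAAT matches lie mostly in the 100 bases before it.

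Among the genes of mitotic entry, all 5 had ratios above 1 (49.6% of all genes) and 1 passed the 1.2-fold rule (8.34%). *Cdk1*, the kinase that drives cells into mitosis, had 2336 counts in the Sparcl1 library and 2045 in the PBS library (log2 ratio 0.31, 95% counting interval 0.22 to 0.40). The cyclin genes *Ccna2*, *Ccnb2* and *Ccnb1* were at 0.25, 0.25 and 0.24, with 1729, 799 and 1023 counts in the Sparcl1 library and 1576, 730 and 940 in the PBS library. The intervals of these 4 genes overlapped. *Cdc25c*, a phosphatase that activates Cdk1, was the rarest member, with 206 counts in the Sparcl1 library and 203 in the PBS library (0.14, -0.15 to 0.43). Per kb of exon, the Sparcl1 library held 19.2 CPM of *Ccnb2*, 17.4 of *Cdk1*, 15.6 of *Ccna2*, 8.92 of *Ccnb1* and 1.54 of *Cdc25c*, and the PBS library 16.2, 14.1, 13.1, 7.56 and 1.40 CPM per kb of the same genes. Per kb of the longest transcript *Ccna2* came first in both libraries, at 21.4 CPM in the Sparcl1 library and 18.02 in the PBS library.

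The transcription factors of this programme were near equality or modestly higher. *Foxm1*, which activates genes of G2 and mitosis, had 1556 counts in the Sparcl1 library and 1444 in the PBS library (log2 0.22, 0.12 to 0.33). *Mybl2*, which encodes B-Myb, the partner of the MuvB core, had 292 counts with Sparcl1 and 303 with PBS (0.06, -0.17 to 0.30), so its ratio is not distinguished from 1 even by counting error. Neither passed the 1.2-fold rule.

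The spindle kinases *Aurka* and *Plk1* had the highest ratios of all members after *Cenpa*. *Aurka*, which encodes the centrosomal kinase Aurora A, had 685 counts in the Sparcl1 library and 530 in the PBS library, or 25.2 CPM with Sparcl1 and 17.97 with PBS (log2 0.49, 0.32 to 0.65). *Plk1*, which encodes Polo-like kinase 1, a regulator of centrosomes, kinetochores and mitotic exit, had 1406 counts with Sparcl1 and 1110 with PBS, or 51.7 CPM with Sparcl1 and 37.6 with PBS (0.46, 0.34 to 0.57). Both were above the central 95% of the 9312 genes with summed counts in the range of the members, 409 to 10535. That band was not matched to the abundance of single genes. *Nek2*, a kinase that separates centrosomes, was listed at 0 in both libraries.

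All 4 genes of the chromosomal passenger complex were higher by the 1.2-fold rule (8.34% of all genes). This complex corrects faulty attachments of microtubules and later organises cytokinesis. *Aurkb*, its kinase Aurora B, had 1062 counts in the Sparcl1 library and 878 in the PBS library (log2 0.39, 0.26 to 0.52). *Incenp*, the scaffold, had 1608 counts with Sparcl1 and 1427 with PBS and the lowest ratio of the group (0.29, 0.19 to 0.39). *Cdca8*, which encodes borealin, and *Birc5*, which encodes survivin, were between them at 0.34 and 0.31. Summed over the complex the level was 168 CPM in the Sparcl1 library and 134 CPM in the PBS library, 1.26-fold higher (1.203 to 1.311). Per kb of exon, *Incenp* and *Aurkb* stood at 13.7 and 13.3 CPM in the Sparcl1 library, above *Birc5* at 9.69 and *Cdca8* at 7.06. The same order held in the PBS library, with 11.2, 10.1, 7.81 and 5.57 CPM per kb, but per kb of the longest transcript *Aurkb* was above *Incenp* and *Cdca8* above *Birc5* in both libraries.

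Genes of the spindle assembly checkpoint had unequal ratios, but their counting intervals all overlapped. *Ttk*, which encodes the kinase Mps1 that starts checkpoint signalling, had 437 counts in the Sparcl1 library and 379 in the PBS library (log2 0.32, 0.12 to 0.52), and *Mad2l1*, which encodes the inhibitor of Cdc20, had 1181 counts with Sparcl1 and 1041 with PBS (0.30, 0.18 to 0.42). Both passed the 1.2-fold rule. *Bub1b*, which encodes BubR1, was at 0.21 with 1000 counts with Sparcl1 and 940 with PBS. *Bub1*, the kinase that recruits other checkpoint proteins to the kinetochore, was the lowest member after *Mki67*, with 785 counts with Sparcl1 and 826 with PBS (0.04, -0.10 to 0.19).

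The 4 subunits of the Ndc80 complex, which ties the kinetochore to microtubules, differed among themselves. *Spc24* was highest, with 367 counts in the Sparcl1 library and 297 in the PBS library (log2 0.42, 0.20 to 0.65). *Ndc80* and *Spc25* were at 0.29 and 0.27 and also passed the 1.2-fold rule, *Spc25* with a ratio of 1.21 just inside it. *Nuf2*, the direct partner of Ndc80, had 937 counts with Sparcl1 and 962 with PBS (0.08, -0.05 to 0.21), and its interval overlapped those of the other 3 subunits only at their lower ends. Per kb of exon, *Spc25* was the most abundant of the 4 at 12.3 CPM in the Sparcl1 library and 10.2 in the PBS library, ahead of *Nuf2*, *Spc24* and *Ndc80*, which stood at 5.43, 5.24 and 3.99 CPM per kb in the Sparcl1 library and at 5.14, 3.91 and 3.26 in the PBS library. The order was the same per kb of the longest transcript.

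Centromere and kinetochore proteins had unequal ratios. *Cenpa*, the histone H3 variant that marks the centromere, had the highest ratio of all members, with 834 counts in the Sparcl1 library and 640 in the PBS library, or 30.7 CPM with Sparcl1 and 21.7 with PBS (log2 0.50, 0.35 to 0.65). *Cenpf*, a large coiled-coil protein of the outer kinetochore, had 1239 counts with Sparcl1 and 1264 with PBS (0.09, -0.03 to 0.20). *Cenpe*, the kinesin that carries chromosomes to the spindle equator, was close to equality, with 1016 counts with Sparcl1 and 1064 with PBS (0.05, -0.07 to 0.18). The interval of *Cenpa* did not overlap those of the other two.

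Among chromosome-structure genes, condensin and topoisomerase differed from *Mki67*. *Top2a*, topoisomerase II alpha, which untangles sister chromatids, was the most abundant member, at 5496 counts in the Sparcl1 library and 5039 in the PBS library (log2 0.24, 0.19 to 0.30). The condensin I genes *Ncapd2*, *Ncaph* and *Ncapg* were at 0.22, 0.20 and 0.18, with *Ncapd2* at 2898 counts with Sparcl1 and 2695 with PBS. *Mki67*, which encodes the proliferation marker Ki-67 that coats mitotic chromosomes, had 4448 counts in the Sparcl1 library and 4876 in the PBS library, or 164 CPM with Sparcl1 and 165 with PBS (-0.02, -0.07 to 0.04). None of the 5 passed the 1.2-fold rule. The intervals of *Top2a* and *Mki67*, the best counted pair, did not overlap. Per kb of exon, condensin subunits were unequal, with *Ncapd2* at 17.0 CPM, *Ncaph* at 9.02 and *Ncapg* at 4.001 in the Sparcl1 library, against 14.6, 7.83 and 3.52 in the PBS library.

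The motors and microtubule-binding proteins of the spindle ranged from clearly higher to near equality. *Kif2c*, which encodes the microtubule-depolymerising kinesin MCAK, had 722 counts in the Sparcl1 library and 584 in the PBS library (log2 0.42, 0.26 to 0.58). *Nusap1*, a microtubule bundler near chromosomes, had 1219 counts with Sparcl1 and 1018 with PBS (0.38, 0.26 to 0.50). These 2 passed the 1.2-fold rule, and the chromosome-bound kinesin gene *Kif4* and the spindle protein gene *Dlgap5* did not, at 0.21 and 0.19. *Hmmr*, a hyaluronan receptor that also acts at spindle poles, was at 0.10, with 1320 counts with Sparcl1 and 1335 with PBS. *Tpx2*, the protein that activates Aurora A on the spindle, was lowest of the group, with 2075 counts with Sparcl1 and 2121 with PBS (0.09, with an interval from just below 0 to 0.17). *Aurka* was thus 1.40-fold higher beside its activator at 1.06-fold.

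*Kif11*, the motor that pushes spindle poles apart and on which mitosis in mammalian cells depends, was listed at 0 in both libraries. Of its longest annotated transcript, 61.0% matched a gene elsewhere at 90% identity or more, and the part of this in the zero was not tested. *Plk4*, the kinase of centriole duplication, was also listed at 0 in both, and 40.5% of its longest transcript matched a gene elsewhere. *Nek2*, listed at 0 as well, had no such match elsewhere. These zeros are not read as absence of the transcript.

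The genes that run anaphase had overlapping intervals. *Cdc20*, the activator of the anaphase-promoting complex, had 1678 counts in the Sparcl1 library and 1479 in the PBS library (log2 0.30, 0.20 to 0.40) and passed the 1.2-fold rule. *Ube2c*, the ubiquitin-conjugating enzyme of that complex, was just outside it at 1.19-fold, with 1536 counts with Sparcl1 and 1398 with PBS. *Pttg1*, which encodes securin, had 455 counts with Sparcl1 and 431 with PBS and the lowest ratio of the 3 (0.20, 0.00 to 0.39). Per kb of summed exons *Cdc20* was the most abundant of all members, at 33.0 CPM in the Sparcl1 library and 26.8 CPM in the PBS library. Per kb of the longest transcript, however, *Top2a* and *Anln* were above it. They stood at 38.7 and 34.6 CPM against 34.4 in the Sparcl1 library, and at 32.7 and 31.9 against 28.0 in the PBS library.

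Cytokinesis genes had a median log2 ratio of 0.18. All 5 were above 1 (49.6% of all genes) with intervals above equality (20.1% of all genes). *Kif23*, the motor subunit of centralspindlin, had 960 counts in the Sparcl1 library and 855 in the PBS library (log2 0.28, 0.15 to 0.42) and alone passed the 1.2-fold rule. *Kif20a*, a midzone kinesin, was at 0.19, and *Ect2*, which activates the contractile-ring regulator RhoA, at 0.18. *Prc1*, which bundles microtubules at the spindle midzone, was at 0.12 with 2143 counts with Sparcl1 and 2133 with PBS. *Anln*, which encodes the contractile-ring scaffold anillin, had 4332 counts with Sparcl1 and 4331 with PBS (0.12, 0.06 to 0.18), 1.08-fold higher once library sizes were taken into account.

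**Figure D3:**
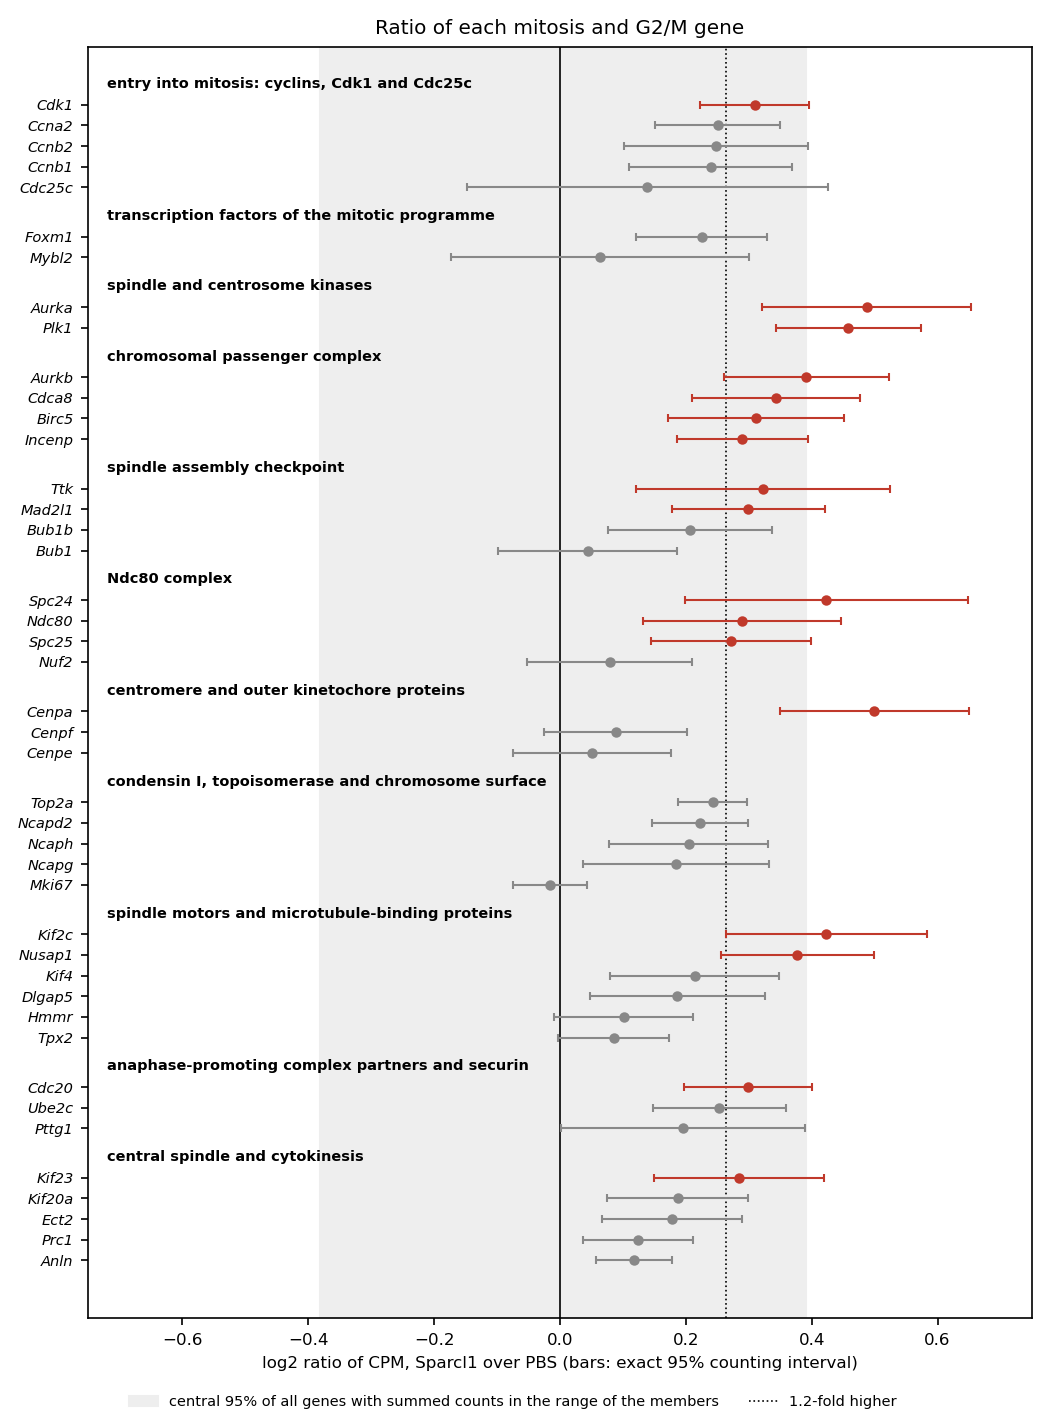
Log2 ratio of CPM, Sparcl1 over PBS (x axis), for the 43 measured members by role, with exact 95% counting intervals; red, higher by the 1.2-fold rule; grey band, central 95% of the 9312 genes with summed counts in the range of the members. All points except Mki67, which is above 0 with total counts as library sizes, lie right of 0, 17 are red, and Cenpa and Aurka are farthest right at 0.50 and 0.49.

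Members differed with the length of their exons. Over the 43 members the Spearman correlation of the log2 ratio with summed exon length was -0.47 (Pearson -0.47 on log length), given as a description because all points come from the same 2 libraries and genes are not replicates. The 3 longest members were *Cenpf*, *Mki67* and *Anln*, with 15433, 10061 and 9063 bases and log2 ratios of 0.09, -0.02 and 0.12. Across all 11145 genes with at least 200 summed counts and an annotated length the same correlation was -0.26, and that with GC content was 0.35 (0.36 over the members). The 21 shorter members had a median log2 ratio of 0.25 and the 22 longer ones 0.20. Of these, 10 and 7 genes passed the 1.2-fold rule (8.34% of all genes). When the smooth trends on GC content and length over all genes were removed, the members' median was 0.23. Then 20 members passed the 1.2-fold rule, against 7.17% of all genes, and the correlation with length within the members was -0.14. The part of GC content and length in single ratios was not otherwise tested.

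**Figure D4:**
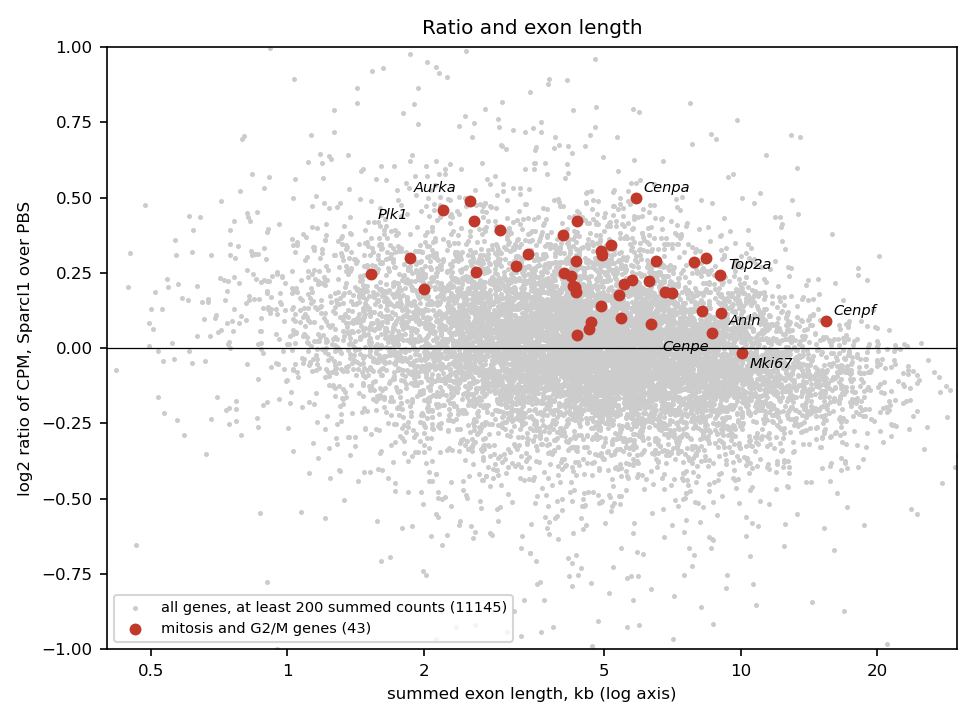
Log2 ratio of CPM, Sparcl1 over PBS (y axis), against summed exon length in kb (x axis, log scale) for 43 members (red) and 11145 genes with at least 200 summed counts (grey); 54 grey points lie outside the axes. Long members such as Mki67 and Cenpf sit near 0 and shorter ones such as Aurka and Plk1 higher, and the grey cloud tilts the same way. Exceptions include Top2a (9013 bases, 0.24), Mad2l1 (8390 bases, 0.30) and Cenpa, the highest member (5860 bases, 0.50).

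Other cell-cycle genes from lists drawn up for comparison were less uniform. Of 77 further mitotic genes, 76 were measured, with a median log2 ratio of 0.18. Ratios were above 1 for 68 (49.6% of all genes), 16 were higher by the 1.2-fold rule (8.34%) and none lower (7.66%). *Troap*, which encodes a spindle protein, was the highest of these with 387 counts in the Sparcl1 library and 266 in the PBS library (0.66, 0.43 to 0.89), and the centromere gene *Cenpk* the lowest, with 164 counts with Sparcl1 and 212 with PBS (-0.25, -0.56 to 0.05). *Hjurp*, the chaperone that deposits Cenpa at centromeres and the most abundant gene of that list, was at 0.12 with 5182 counts with Sparcl1 and 5172 with PBS. Genes of DNA replication and the G1/S transition were also higher, with a median of 0.20. Of these 47, 43 had ratios above 1 (49.6% of all genes), 21 passed the 1.2-fold rule (8.34%) and none was lower (7.66%). Among them *Rrm2*, a subunit of ribonucleotide reductase, was the most abundant at 6615 counts with Sparcl1 and 5361 with PBS (0.42, 0.37 to 0.47), *Orc1*, of the origin recognition complex, the highest (0.73, 0.40 to 1.07), and *Mcm10*, a replication initiation factor, the lowest (-0.16, -0.34 to 0.02).

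Lists of other cell-cycle regulators had medians nearer 0, though single genes did not. The 1.2-fold rule called 8.34% of all genes higher and 7.66% lower. In these 5 lists it called higher 2 of the 15 anaphase-promoting complex genes, 1 of the 17 brakes and 1 of the 7 measured D-type cyclin genes. No gene of the DREAM or cohesin lists was higher, and no gene of the 5 lists was lower. The 15 genes of the anaphase-promoting complex and its partners had a median log2 ratio of 0.03, with *Ube2s* at 0.42 and *Fzr1*, which encodes the late activator Cdh1, at 0.34, *Anapc5* at -0.09 and *Anapc1*, its largest subunit, at -0.20. The 12 subunits of DREAM and MuvB, which repress or activate cell-cycle genes in general, had a median of 0.04 (0.10 with the GC and length trends removed) and a range from -0.09 (*Lin52*) to 0.15 (*Lin9*), with the abundant *Rbbp4* at -0.06. Cohesin, which holds sister chromatids together, was the one cell-cycle list of the 7 with a negative median, -0.10 (0.00 with the GC and length trends removed). Of its 9 genes, 1 had a ratio above 1 (49.6% of all genes), *Rad21* (4957 counts with Sparcl1 and 5027 with PBS, 0.10). Intervals lay below equality for 6 of the 9 (21.6% of all genes), and *Pds5b* was lowest at -0.25. Inhibitors and brakes had a median of 0.06 over 17 genes, with the CDK4 and CDK6 inhibitor gene *Cdkn2c* at 0.29, *Rb1* at -0.14 and *Ccng1* at 0.02. *Cdkn1a*, the p21 gene, had 11008 counts in the Sparcl1 library and 11236 in the PBS library (0.09). The 7 measured D-type cyclin and growth-factor response genes had a median of 0.08 (0.02 with the GC and length trends removed), with *Ccnd1* at 0.27 (27736 counts with Sparcl1 and 24973 with PBS) and *Ccnd2* at -0.12 (25368 counts with Sparcl1 and 29822 with PBS). *Rbl1* and *Rbl2* are in the lists of both DREAM subunits and brakes.

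**Figure D5:**
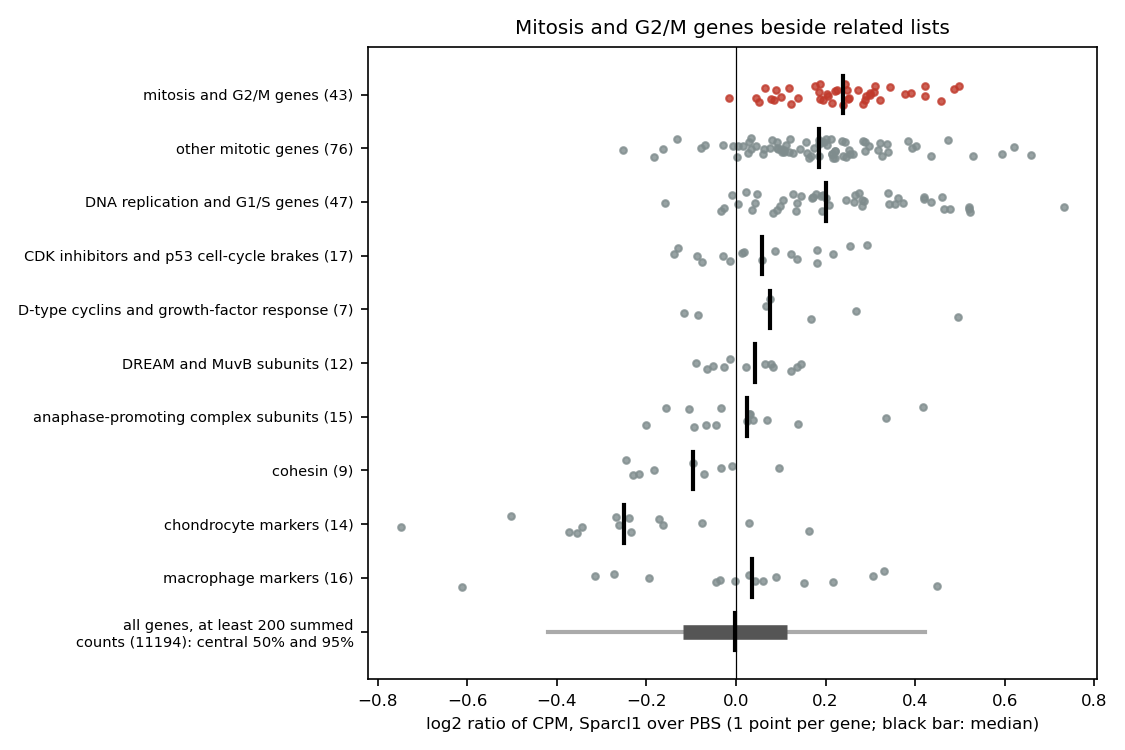
Log2 ratio of CPM, Sparcl1 over PBS (x axis), of each gene (points) with the list median (black bars), for the mitosis and G2/M genes (red), 7 other cell-cycle lists, chondrocyte markers and macrophage markers (grey), with the number of genes in brackets; the last row gives the central 50% and 95% of 11194 genes. The medians are 0.24 for the mitosis and G2/M genes, 0.18 and 0.20 for the other mitotic and the replication genes, and -0.10 for cohesin (0.00 with the GC and length trends removed).

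Some members share sequence with other genes, and their counts are less certain. In the GENCODE M21 annotation, 14 of the 43 measured members had a gene elsewhere that matched at least 200 bases of the transcript at 90% identity or more. Such matches covered 83.5% of the longest transcript of *Cdc20*, 82.4% of *Plk1*, 56.7% of *Ndc80*, 51.9% of *Ccnb1* and 50.1% of *Kif2c*. For the others of the 14 they covered at most 28.3% (*Mybl2*). The part of such copies in single ratios was not tested. Exons overlapped exons of another gene in 14 of the 43 measured members. The longest overlap was 1271 bases of *Kif20a* with *Cdc23* on the opposite strand, and *Ccna2* (chromosome 3, 36564865 to 36572150) overlapped *Exosc9* by 510 bases, also on the opposite strand. The sources used here do not give whether the counting used strand. The 19 members with neither feature had a median log2 ratio of 0.25. All 19 had ratios above 1 (49.6% of all genes) and 9 passed the 1.2-fold rule (8.34%). *Mki67*, which shares a short stretch with another gene, was not among them.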

How the data were processed

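The authors deposited whole-number read counts per gene symbol, 1 column per library, each assigned to a library by its title. The submitters' processing notes name HTSeq, STAR, FastQC and Trimmomatic and build mm10; their versions, the annotation and the strand setting are not given in the sources used here. Library totals were 26871933 (Sparcl1) and 29858851 (PBS).

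Counts were scaled to CPM with TMM factors, 1.01 (Sparcl1) and 0.988 (PBS), from edgeR 4.0.16 in R 4.3.3. Log2 ratios carry exact 95% Clopper-Pearson intervals on the Sparcl1 part of a gene's counts. Since PCR copies are not independent molecules, intervals cover counting error only. A gene needed 20 summed counts, and a count of 0 entered as 3. With 1 library per group no model was fitted and no p-value is given. The ratio and its interval were tested on simulated counts with counting error only, at the library sizes used here, and the scaling was not tested in this way. Members and lists were chosen with earlier results of these data known. Named genes are the members by role, and the highest, lowest and most abundant gene of each other list with at least 200 summed counts. *Cdkn1a*, *Nusap1*, *Lyz2*, *Col2a1*, *Plk4* and *Exosc9* were added after their values or places were seen. Exon lengths, GC content and similar copies (BLAST 2.17.0) came from GENCODE M21 (GRCm38, the assembly mm10 names), which matched 99.6% of symbols. The rest used matplotlib 3.10.9, statsmodels 0.14.6, scipy 1.17.1, numpy 2.4.6 and pandas 2.3.3 in Python 3.11.15. Alternatives were total counts, DESeq2 1.42.0 and upper-quartile scaling, other count minimums and folds, and removal of smooth trends.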

Additional observations from a re-analysis of the deposited data

How the results depend on the processing

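The members' median log2 ratio was 0.24 and stayed between 0.23 and 0.27 under every scaling, count minimum and trend removal run, and as a mean. With total counts as library sizes, which moved the median of all genes to 0.03, all 43 members had ratios above 1 (56.5% of all genes). There 22 members passed the 1.2-fold rule, against 10.5% of all genes. With the abundance trend removed 43 members had ratios above 1 (50.4% of all genes) and 18 passed the 1.2-fold rule (8.34%). *Mki67* had a ratio above 1 in both of these, and with the GC and length trends removed, where it was at 0.05 and *Mybl2* at -0.01. Under DESeq2 scaling 42 members were above 1 (49.1% of all genes) and 17 passed the 1.2-fold rule (8.17%). Upper-quartile scaling gave 42 (48.9%) and 17 (8.12%). The summed level of the members had a log2 ratio of 0.24 with total counts, against 0.21. A 1.1-fold limit gave 32 members higher (16.1% of all genes) and a 1.5-fold limit 0 (2.32%), so the count rests on the limit chosen. An alternative added after seeing the data left out members that share sequence or exons. It left 19 above 1 (49.6% of all genes) and 9 past 1.2-fold (8.34%), because fewer members were counted. CHR matches were in 22.2% of member promoters when only the last 100 bases before the start were searched, since many lie after the start. In that window they were in 4.53% of genes with at least 200 summed counts and in 7.18% of all genes. Of the 43 single ratios, 7 left their counting interval with the GC and length trends removed, among them *Ncapg* (0.35), *Mad2l1* (0.43) and *Cenpf* (0.22), and none left it under the other scalings. No paired analysis was possible because there was 1 library per group, and no replicate could be left out. The planned search for protein motifs was not run. Depth limits the rarest members, *Cdc25c*, *Mybl2* and *Spc24*, whose intervals are the widest.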

Other observations

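Ratios of members within a library need no scaling. Set against *Mki67*, the other 42 measured members all had a larger share in the Sparcl1 library, and for 34 the 95% counting interval of the change excluded 0. *Cenpa* counts were 18.8% of *Mki67* counts in the Sparcl1 library and 13.1% in the PBS library, and those of *Plk1* 31.6% in the Sparcl1 library and 22.8% in the PBS library. *Mki67* was chosen for this after its values were seen, and it is the lowest member. The common direction follows from that choice, and the count of 34 depends on it, so neither is evidence of a shift.

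CCAAT boxes of the same orientation stood 30 to 36 bases apart in 9 of 36 member promoters (25%), against 2.78% of 8861 genes with at least 200 summed counts. The members were *Aurka*, *Ccnb1*, *Ccnb2*, *Cdca8*, *Cdk1*, *Hmmr*, *Nek2*, *Spc25* and *Ube2c*. The spacing was chosen after these promoters were seen, so the difference from other genes is a description and not a test. Any CCAAT match was itself more frequent in member promoters, at 72.2% against 43.03% of those 8861 genes. The part of this in the pairs was not tested. By list, a CHR match was found in 42 of 62 promoters of the further mitotic genes (67.7%), in 10 of 40 of the replication and G1/S genes (25%) and in 2 of 15 of the inhibitors and brakes (13.3%), while the CCAAT box was found in 67.7%, 62.5% and 73.3% of these 3 lists, against 72.2% of the member promoters.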
